A study of Mus musculus with 19 samples.

Results

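Chemokines are small secreted proteins, and their receptors are the proteins on the surface of cells that read them. The genes described here are those whose symbols begin with Ccl, Cxcl, Ccr, Cxcr, Cx3cl, Cx3cr, Xcl or Xcr followed by a number, which gave 56 genes of the 19486 in the table, 36 ligands and 20 receptors. They were followed in 19 libraries of RNA from mouse liver tumors, for which every label gives the tissue as hepatocellular carcinoma (HCC, the main cancer of hepatocytes). The groups are named as the labels name them, MYC_Twist1_OFF with 3 libraries, MYC_Twist1_HCC with 5, MYC_Recur with 3, MYC_OFF with 3 and MYC_HCC with 5. MYC is the oncogene named in the study title as the driver and Twist1 is a transcription factor of cell migration, and the labels say nothing further of the alleles, their promoters, a treatment, a time point, the age of the mice or what OFF and Recur mean. Whether each library came from its own animal is not stated either, and the p-values therefore reflect only how these libraries scattered. The 10 libraries of the HCC groups were analysed again from an earlier series and the other 9 were new, so group and deposit cannot be told apart where an HCC group is set against 1 of the 3 new groups.

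Chemokines form gradients that cells follow through receptors coupled to inhibitory G proteins. In the liver they draw monocytes, neutrophils, lymphocytes and natural killer cells out of the sinusoids, and tumor cells, Kupffer cells, stellate cells and endothelial cells can all make them. Inflammatory members are switched on through NF-kB and interferon signalling, whereas homeostatic members such as Cxcl12 are made continuously.

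The libraries held deposited normalized values that summed to between 507868 and 690310, and between 11016 and 12479 genes of a library reached a value of 1. The 10 highest genes took 22.6% to 26.7% of the total in MYC_Twist1_OFF, 8.43% to 12.7% in MYC_Twist1_HCC, 7.75% to 12.4% in MYC_Recur, 21.0% to 28.8% in MYC_OFF and 6.95% to 8.56% in MYC_HCC. Myc itself was at 32.55 to 45.69 in MYC_Twist1_OFF, 102.13 to 152.97 in MYC_Twist1_HCC, 152.38 to 158.64 in MYC_Recur, 33.93 to 59.83 in MYC_OFF and 128.51 to 180.46 in MYC_HCC. Twist1 was at most 0.12 in the libraries labelled with it and at most 0.27 in any library, so a direction between groups with and without that label rests on the labels. Summed hepatocyte markers (9 of 10 listed genes had a row) were at 3651.11 to 4300.42 in MYC_Twist1_OFF, 5209.9 to 6842.19 in MYC_Twist1_HCC, 5968.03 to 7069.4 in MYC_Recur, 3545.4 to 4130.38 in MYC_OFF and 7039.45 to 13471.8 in MYC_HCC. Of these 9 genes, 7 were lower and 1 was higher in MYC_OFF against MYC_HCC, with a median log2 fold change of -1.84. Of all genes tested, 39.4% were lower and 18.9% higher in that comparison, with a median of -0.38. The higher marker, the urea cycle gene Ass1, stood at 1601 to 2825.57 in MYC_OFF, against 504.21 to 1414.92 in MYC_HCC. Ass1 made up a large part of the MYC_OFF sums. The highest MYC_HCC sum was that of MYC_HCC 4, against a group median of 7453.87. Cps1 was at 451.06 in that library and at 58.89 to 72.22 in the other MYC_HCC libraries.

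Of the 56 genes, 24 were measured, which here means a value of at least 1 in at least 3 libraries. They were 16 ligands and 8 receptors (Cxcr1, Cxcr2, Cxcr4, Ackr3, Ccr3, Ccr8, Ccr10 and Cx3cr1). Only 7 reached a value of 1 in all 19 libraries, namely Cxcl12, Cxcr2, Cxcl10, Ccl25, Ccl27a, Ccl9 and Cxcr4. The other 32 were not measured: 23 never reached 1, 5 did so in 1 library and 4 in 2 libraries, with a highest value of 3.16 for Ccl11. They included the receptors of several measured ligands, whose highest values in any library were 0.11 for Ccr6 (receptor of Ccl20), 0.14 for Ccr9 (receptor of Ccl25), 0.17 for Cxcr6 (receptor of Cxcl16), 0.55 for Cxcr3 (receptor of Cxcl10 and Cxcl11), 0.76 for Ccr2 (receptor of Ccl2) and 2.31 for Xcr1 (receptor of Xcl1). For a value in whole tumor tissue, fewer cells that use a gene and less RNA of it per cell cannot be told apart.

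**Figure D1:**
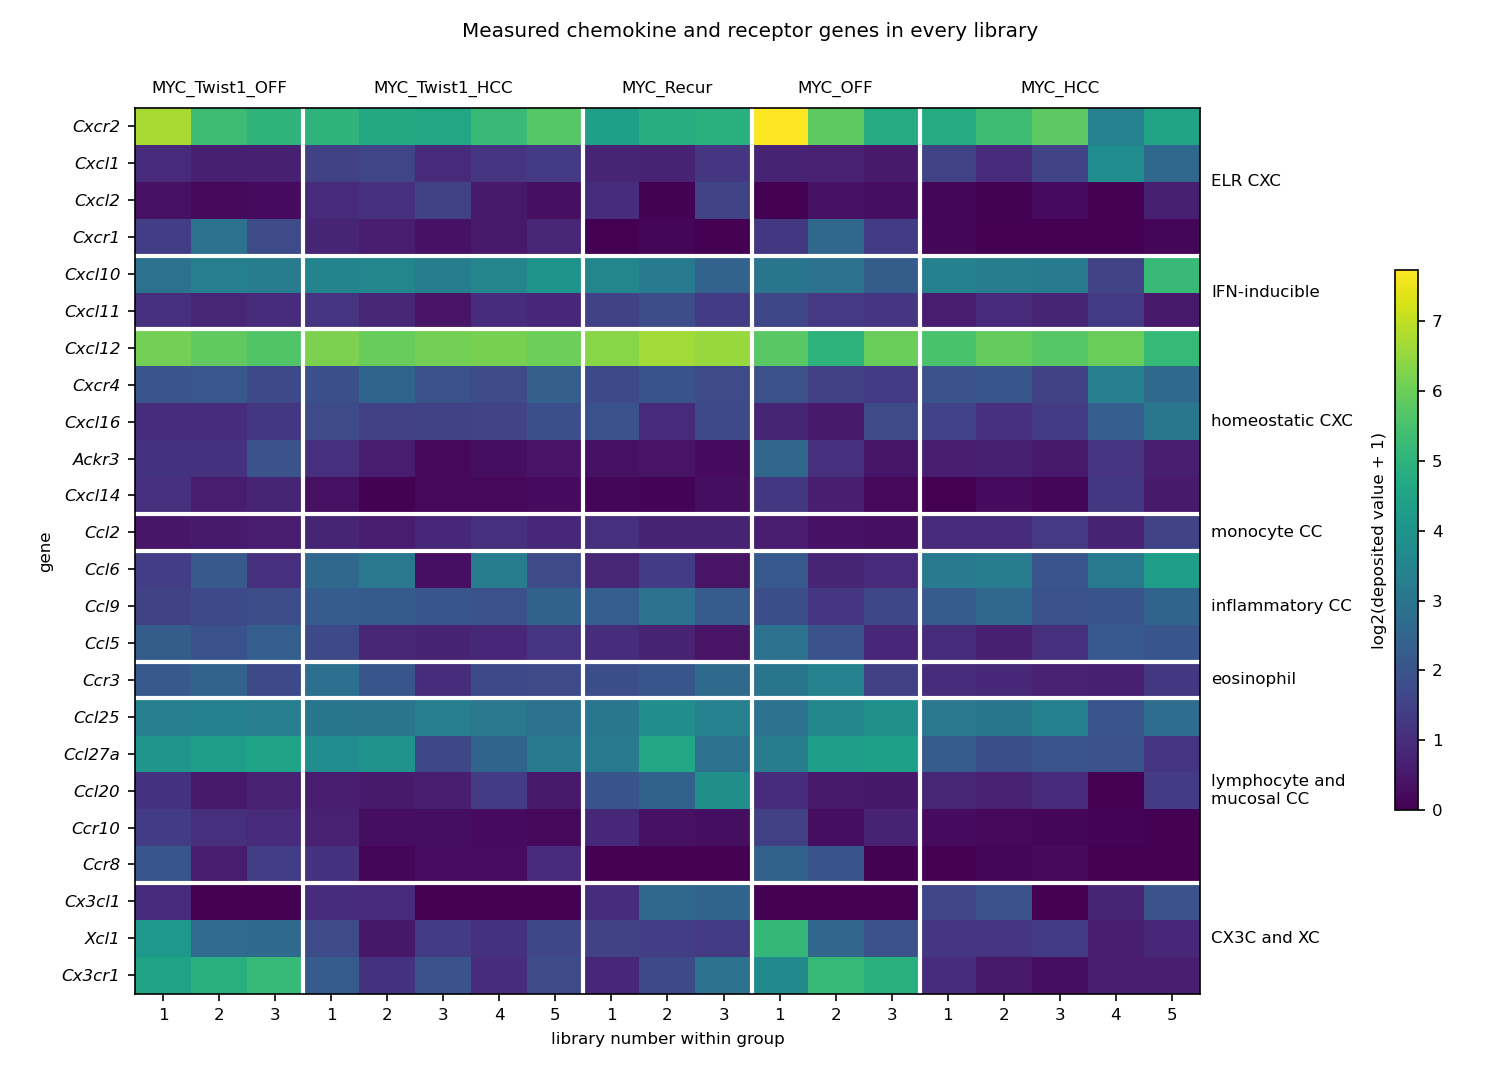
Heat map of the 24 measured chemokine and receptor genes (rows, by role) in the 19 libraries (columns, numbered within each group); colour is log2(deposited value + 1). Cx3cr1 is bright in the MYC_Twist1_OFF and MYC_OFF columns, Ccl20 in the MYC_Recur columns, and the brightest cell is Cxcr2 in MYC_OFF 1 at a value of 211.79.

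The limma tests, on log2(value + 1) and in both directions, were fitted over 13253 genes and adjusted by Benjamini-Hochberg, and a gene was called at an adjusted p under 0.05. In the comparison of MYC_OFF with MYC_HCC, the 5 receptors called were higher in MYC_OFF (Cx3cr1, Cxcr1, Ccr3, Ccr8 and Ccr10), and so were the ligands Ccl27a, Xcl1 and Cxcl11, while the ligands Cxcl1, Ccl2, Ccl6, Ccl9 and Cx3cl1 were lower. That made 13 of 24 measured members called, against 58.3% of all genes tested, with 8 higher (18.9% of all genes) and 5 lower (39.4% of all genes). The share called in either direction was thus close to that of all genes, and the median log2 fold change was 0.39 over the 24 members and -0.38 over all genes. Without MYC_OFF 1 these medians were 0.027 and -0.48, and without the filter on low values they were 0.0076 and -0.038. The member median thus depended on 1 library and on the filter. Cxcr1 reached a value of 1 in 6 libraries and Ccr10 in 3, all in MYC_OFF or MYC_Twist1_OFF. Ccr8 did so in 5 and Ackr3 in 7, mostly in these groups. These receptors were thus measured only or mainly through the OFF groups, so the filter partly set their direction, and the member counts and medians, in comparisons with those groups. After each of 3 other scalings of the libraries the median of all genes lay between -0.05 and 0.06, and the members called were 10 or 11 higher and 4 lower (71.4% to 73.3% higher, against 61.5% with values as deposited). The share of calls that were higher rose among all genes too, from 32.5% with values as deposited to between 46.6% and 52.0%.

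In MYC_Twist1_OFF against MYC_Twist1_HCC, 7 members were called and all were higher in MYC_Twist1_OFF, the receptors Cx3cr1, Cxcr1, Ccr10 and Ackr3 and the ligands Xcl1, Ccl27a and Ccl5. Among all genes 13.1% were called higher and 33.5% lower, 46.6% in all, and the median was 0.16 over the members and -0.32 over all genes. Without MYC_Twist1_HCC 3 these medians were 0.017 and -0.35, and without the filter on low values they were 0.047 and -0.021. After scaling the median of all genes lay between -0.10 and 0.01 and 8 members were higher and 0 lower. Among all genes called, 28.0% were higher with values as deposited and 42.6% to 50.9% after scaling. The count depended on single libraries: it was 2 without MYC_Twist1_OFF 1, and 4 without MYC_Twist1_OFF 3, without MYC_Twist1_HCC 3 or without MYC_Twist1_HCC 4. Neither the comparison of MYC_Twist1_OFF with MYC_OFF nor the interaction, which subtracts the difference between MYC_OFF and MYC_HCC from that between MYC_Twist1_OFF and MYC_Twist1_HCC, called a member. In limma the first had 0 members at an unadjusted p under 0.05 (0.00755% of all genes were called) and the second had 1, with a smallest adjusted p of 0.57 (0.0981% of all genes were called, 0.0226% higher and 0.0755% lower).

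Within the new deposit, MYC_Recur against MYC_OFF called 10 members. The ligands Ccl20, Cx3cl1, Cxcl12 and Ccl9 were higher in MYC_Recur, while the receptors Cx3cr1, Cxcr1, Ccr8 and Ackr3 and the ligands Xcl1 and Ccl5 were lower. Of all genes 49.4% were called, 37.5% higher and 12% lower, with a median of -0.21 over the members and 0.45 over all genes. Without 1 library of these groups the member median ran from -0.26 (MYC_Recur 2 left out) to -0.01 (MYC_OFF 2 left out). Without the filter on low values it was -0.048, against 0.067 over all genes. After scaling the median of all genes lay between -0.07 and 0.05, and 2 members were higher and 7 lower under each scaling (22.2% higher, against 40.0%), since Cxcl12 and Ccl9 were no longer called. The share of calls that were higher fell among all genes too, from 75.8% to between 47.9% and 56.1%. The count was 6 without MYC_OFF 1. Groups that did not overlap were common among all genes tested, at 50.5% in MYC_Twist1_OFF against MYC_Twist1_HCC (12 of 24 members), 50.1% in MYC_OFF against MYC_HCC (9 members) and 53.4% in MYC_Recur against MYC_OFF (10 members), but 20.6% in MYC_Recur against MYC_HCC (8 members) and 11.7% in MYC_Twist1_HCC against MYC_HCC (2 members). The comparisons of MYC_OFF with MYC_HCC and of MYC_Recur with MYC_OFF share the MYC_OFF libraries, so opposite signs between them are not separate observations.

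MYC_Recur against MYC_HCC called 6 members, with Ccl20, Cxcl12, Ccl27a, Cxcl11 and Ccr3 higher in MYC_Recur and Ccl6 lower. Of all genes 10.8% were called, 6.9% higher and 3.93% lower. Under each of the 3 scalings 3 members were higher and 1 lower. Among all genes called, 63.7% were higher with values as deposited and 50.2% to 54.2% after scaling. The count was 2 without MYC_Recur 3, 3 without MYC_Recur 2 or without MYC_HCC 5, and 2 without both MYC_HCC 4 and MYC_HCC 5. MYC_Twist1_HCC against MYC_HCC called 0 of the 24 members in limma, against 6.43% of all genes (3.2% higher and 3.23% lower), with 8 members at an unadjusted p under 0.05 and a smallest adjusted p of 0.087.

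**Figure D2:**
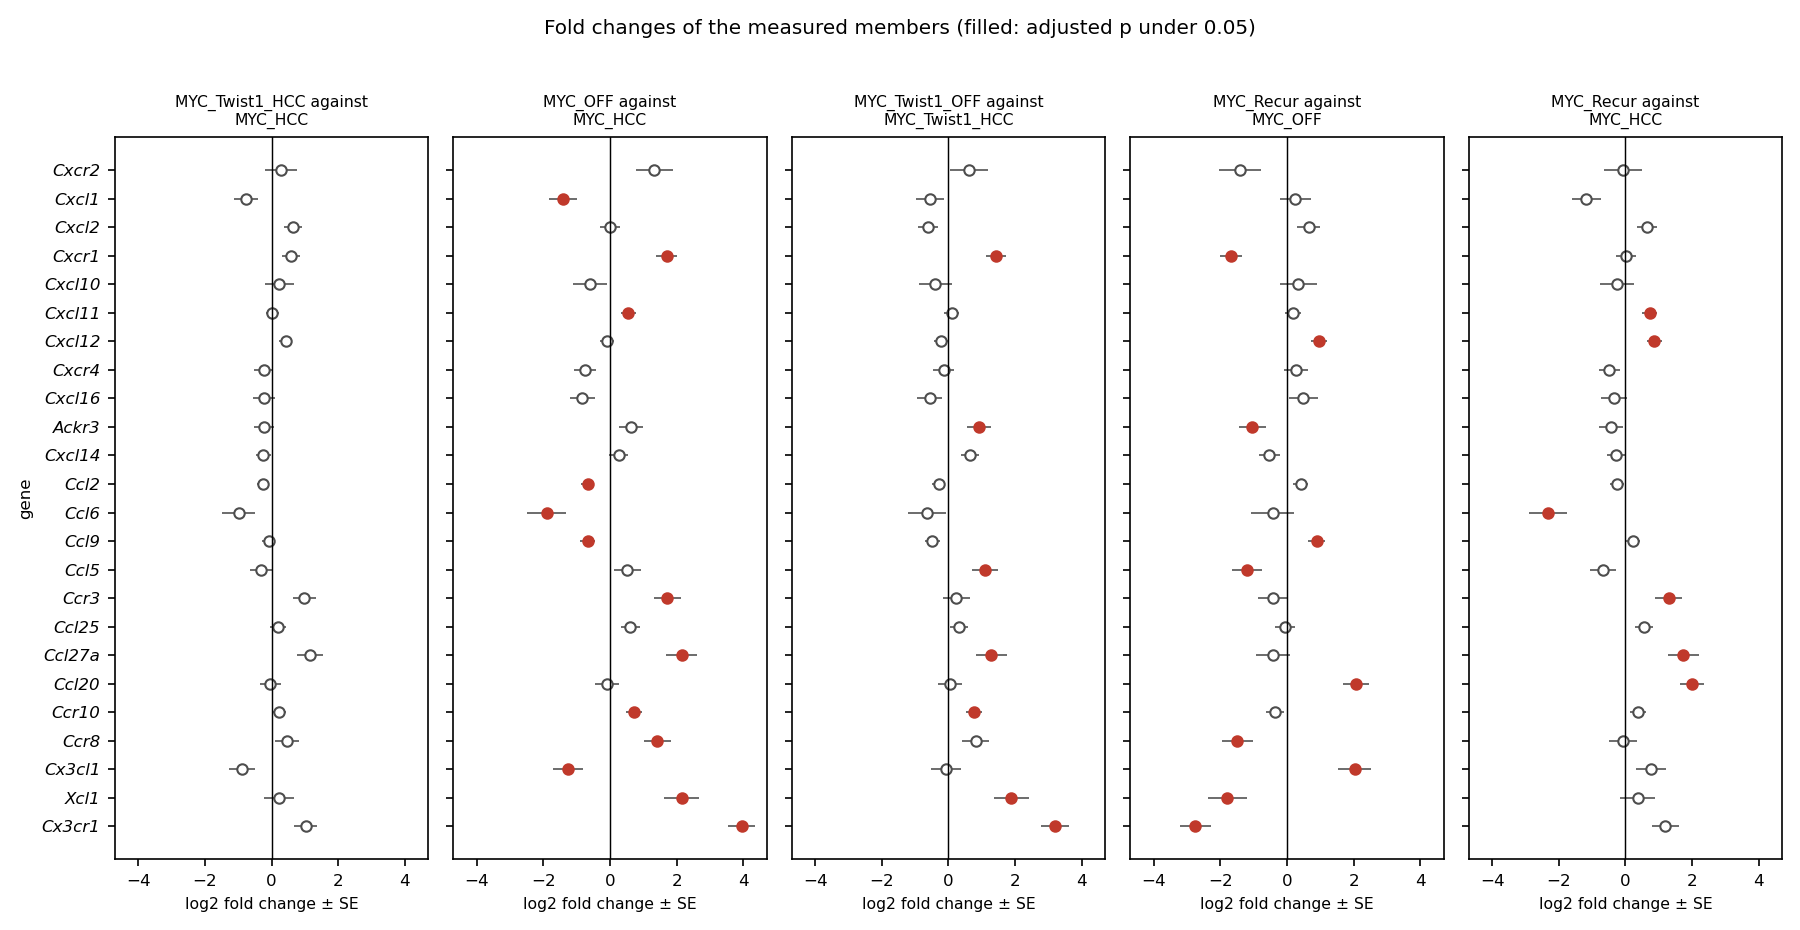
Log2 fold changes (horizontal axis, first-named over second-named group, with standard error bars) of the 24 measured members in 5 comparisons; filled points passed an adjusted p of 0.05 and open points did not. Filled points are 0, 13, 7, 10 and 6 from left to right, and Cx3cr1 in MYC_OFF against MYC_HCC lies at 3.95. The points of Cx3cl1 in the MYC_OFF comparisons and of Ccr8 in the MYC_Recur comparisons involve a group listed at 0 and depend on the pseudocount.

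In the CX3C pair, receptor and ligand were high in different groups. Cx3cr1, the receptor of patrolling monocytes, of a part of the macrophages and of cytotoxic lymphocytes, had values of 21.02, 28.05 and 35.29 in MYC_Twist1_OFF, and 3.75, 1.21, 2.98, 0.99 and 2.46 in MYC_Twist1_HCC. It had 0.82, 2.24 and 6.33 in MYC_Recur, 11.69, 35.27 and 27.54 in MYC_OFF, and 0.97, 0.43, 0.22, 0.56 and 0.56 in MYC_HCC. Every library of the OFF groups was thus above every other library. The log2 fold change was 3.20 (SE 0.41, limma adjusted p = 1.12e-05) in MYC_Twist1_OFF against MYC_Twist1_HCC, 3.95 (SE 0.41, adjusted p = 5.04e-07) in MYC_OFF against MYC_HCC and -2.75 (SE 0.46, adjusted p = 9.08e-05) in MYC_Recur against MYC_OFF. These calls held under every alternative tried. The difference between MYC_Twist1_HCC and MYC_HCC was 1.02 with an adjusted p of 0.087, and the groups did not overlap.

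The annotated Cx3cr1 gene (chr9:119901616-120069879, minus strand, GRCm38) overlaps Gorasp1, a Golgi stacking protein gene on the same strand, and the counting rule for shared bases is not given in the sources used here. Gorasp1 went the opposite way. It had 0.43, 2.96 and 0.22 in MYC_Twist1_OFF, against 18.53, 29.35, 17.9, 21.92 and 10.15 in MYC_Twist1_HCC. It had 23.18, 13.47 and 20.83 in MYC_Recur, 2.2, 0.34 and 0.28 in MYC_OFF, and 24.68, 24.99, 19.16, 13.34 and 20.03 in MYC_HCC. The log2 fold changes of Gorasp1 were -3.36 in MYC_Twist1_OFF against MYC_Twist1_HCC, -3.57 in MYC_OFF against MYC_HCC and 3.48 in MYC_Recur against MYC_OFF (limma adjusted p = 5.72e-06, 9.42e-07 and 7.61e-06). Csrnp1, a transcription factor gene that also overlaps on the same strand, was called in the same direction as Cx3cr1 in these 3 comparisons. It was at 3.77 to 4.5 in MYC_Twist1_OFF, 1.67 to 2.67 in MYC_Twist1_HCC, 2.11 to 2.72 in MYC_Recur, 3.61 to 5.39 in MYC_OFF and 0.67 to 1.78 in MYC_HCC, with a log2 fold change of 0.67 in MYC_Twist1_OFF against MYC_Twist1_HCC, 1.19 in MYC_OFF against MYC_HCC and -0.65 in MYC_Recur against MYC_OFF (limma adjusted p = 0.0114, 7.40e-05 and 0.0237). Wdr48, on the opposite strand, overlaps Cx3cr1 too and was at 15.91 to 21.1 in MYC_Twist1_OFF, 25.35 to 31.16 in MYC_Twist1_HCC, 18.83 to 30.66 in MYC_Recur, 15.78 to 22.74 in MYC_OFF and 15.48 to 25.66 in MYC_HCC. The part of these overlaps in the Cx3cr1 values was not tested, and the Cx3cr1 values are uncertain to that extent.

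**Figure D3:**
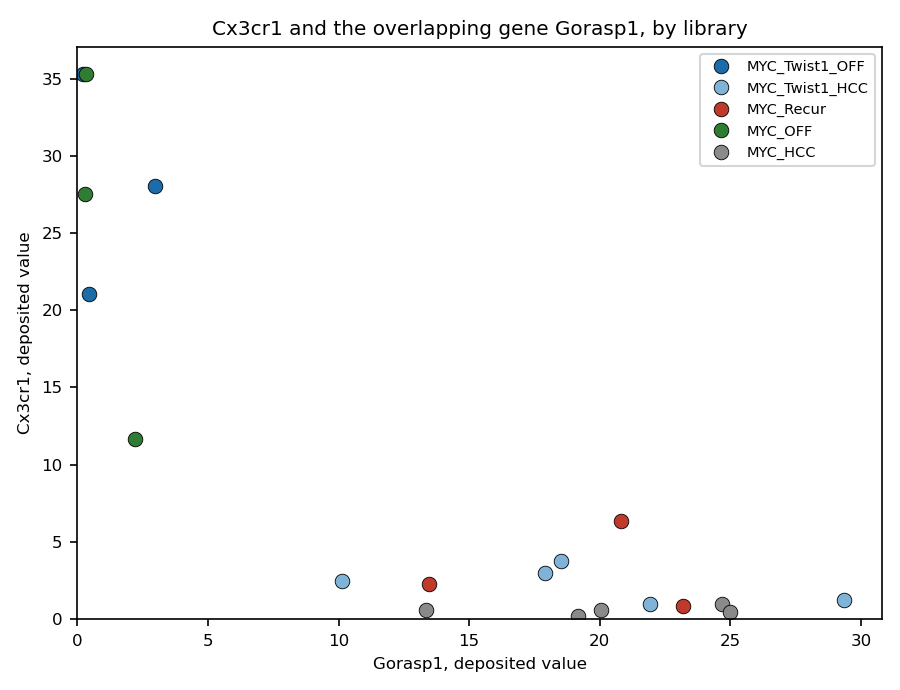
Deposited value of Cx3cr1 (vertical axis) against that of the overlapping gene Gorasp1 (horizontal axis), 1 point per library, coloured by group. The 6 libraries of the OFF groups lie at Gorasp1 values of 2.96 or less and Cx3cr1 values of 11.69 or more, and the other 13 lie at Gorasp1 values of 10.15 or more and Cx3cr1 values of 6.33 or less.

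Cx3cl1, the only ligand of that receptor and a membrane-anchored chemokine (chr8:94772009-94782427, plus strand), had its highest values in MYC_Recur. It was listed at 0.93, 0 and 0 in MYC_Twist1_OFF and at 0.98, 0.93, 0, 0 and 0 in MYC_Twist1_HCC. It had 1.03, 5.04 and 4.6 in MYC_Recur, was listed at 0 in all 3 MYC_OFF libraries, and had 2.04, 2.85, 0, 0.76 and 2.93 in MYC_HCC. MYC_Recur lay above MYC_OFF without overlap (limma adjusted p = 0.00282), a call that held under every alternative. MYC_OFF was below MYC_HCC (limma adjusted p = 0.0222), with MYC_HCC 3 also listed at 0, and this call was lost in 6 of the 27 alternatives, among them the omission of any 1 MYC_OFF library.

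Xcl1, the chemokine that natural killer cells and CD8 T cells release to draw cross-presenting dendritic cells, had values of 16.45, 5.54 and 5.27 in MYC_Twist1_OFF and 2.43, 0.42, 1.53, 1.16 and 2.15 in MYC_Twist1_HCC. It had 1.86, 1.66 and 1.51 in MYC_Recur, 34.33, 4.89 and 2.78 in MYC_OFF, and 1.34, 1.25, 1.54, 0.56 and 0.84 in MYC_HCC. The lowest OFF library, at 2.78, was above every library of the other groups. The log2 fold change was 1.88 (SE 0.52, limma adjusted p = 0.00712) in MYC_Twist1_OFF against MYC_Twist1_HCC, 2.15 (SE 0.52, adjusted p = 0.00192) in MYC_OFF against MYC_HCC and -1.79 (SE 0.59, adjusted p = 0.0171) in MYC_Recur against MYC_OFF. The first was lost without MYC_Twist1_OFF 1 (adjusted p = 0.0655) and the third without MYC_OFF 1 (adjusted p = 0.119) and with only these groups in the fit (adjusted p = 0.11), and the second held under every alternative. The Xcl1 promoter is printed because Xcl1 was among the ligands called in most comparisons and was high in the OFF groups, for comparison with that of Ccl20, which was high in MYC_Recur. It spans chr1:164935473-164935772, minus strand, in the GRCm38.p6 build, from RefSeq, and runs from 250 bases before to 50 bases after the start of the gene. It held none of the 3 motifs searched on both strands, an NF-kB form (GGG, any 2 bases, TTTCC), an interferon response form (TTTC, any 2 bases, TTTC) and TATAAA, and no capitals are marked.
Xcl1 promoter: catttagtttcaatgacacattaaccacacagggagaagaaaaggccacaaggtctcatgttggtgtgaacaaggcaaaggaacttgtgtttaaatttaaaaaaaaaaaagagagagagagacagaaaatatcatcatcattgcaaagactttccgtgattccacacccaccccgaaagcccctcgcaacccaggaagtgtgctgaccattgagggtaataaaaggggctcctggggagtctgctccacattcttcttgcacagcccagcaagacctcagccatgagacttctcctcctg

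Among markers of T and natural killer cells, of which 13 of 14 listed genes had a row, the summed value was at 14.41 to 19.05 in MYC_Twist1_OFF, 7.14 to 11.3 in MYC_Twist1_HCC, 7.42 to 17.53 in MYC_Recur, 9.79 to 33.66 in MYC_OFF and 6.53 to 9.3 in MYC_HCC. Of the 8 tested, 2 were higher and 0 lower in MYC_Twist1_OFF against MYC_Twist1_HCC, 4 were higher and 0 lower in MYC_OFF against MYC_HCC, and 0 were higher and 2 lower in MYC_Recur against MYC_OFF. Of all genes 13.1%, 18.9% and 37.5% were higher and 33.5%, 39.4% and 12% lower in these comparisons. The highest sum was in MYC_OFF 1, where Cd3g stood at 5.26 and Lck at 8.29, and Xcl1 was highest there too. Of the CD8 T and natural killer cell markers, that library had Cd8b1 at 3.7, Gzmb at 3.47 and Gzma at 3.45. Nkg7 was at 0.61 there, Klrb1c at 0.2, Ncr1 at 0.16 and Cd8a at 0. Ncr1 was highest in MYC_Recur 2, at 9.38, where Xcl1 stood at 1.66. The defining marker Cd3e was low, at 0.03 to 0.45 in MYC_Twist1_OFF, 0 to 0.14 in MYC_Twist1_HCC, 0 to 0.06 in MYC_Recur, 0 to 1.39 in MYC_OFF and 0 to 0.44 in MYC_HCC. The part of these cells in the Xcl1, Ccl5 and Ccr8 values was not tested.

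Among the ELR chemokines, the branch that attracts neutrophils, and their receptors, the receptor Cxcr1 was higher and the ligand Cxcl1 lower in MYC_OFF against MYC_HCC. Cxcr1 (chr1, minus strand) had 1.73, 6.31 and 2.5 in MYC_Twist1_OFF, 0.73, 0.49, 0.29, 0.44 and 0.78 in MYC_Twist1_HCC, 0.02, 0.1 and 0 in MYC_Recur, 1.4, 5.04 and 1.56 in MYC_OFF, and 0.08, 0, 0, 0 and 0.07 in MYC_HCC. The OFF libraries did not overlap with any other group. It was higher in MYC_Twist1_OFF than in MYC_Twist1_HCC (log2 fold change 1.42, SE 0.30, limma adjusted p = 0.000985) and in MYC_OFF than in MYC_HCC (1.70, SE 0.30, adjusted p = 0.000127), and lower in MYC_Recur, against MYC_OFF (-1.68, SE 0.34, adjusted p = 0.000525). All 3 calls held under every alternative. In MYC_Twist1_HCC every library lay above every MYC_HCC library (0.58, adjusted p = 0.185).

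Cxcr2, the other receptor gene of this branch, was called in no comparison. It had 104.07, 38.34 and 31.33 in MYC_Twist1_OFF, 31.46, 24.34, 24.12, 36.26 and 51.98 in MYC_Twist1_HCC, 19.73, 26.92 and 28.93 in MYC_Recur, 211.79, 55.19 and 26.22 in MYC_OFF, and 26.36, 39.43, 54.21, 9.85 and 22.04 in MYC_HCC. A single library was far above the others in each OFF group, and the third MYC_OFF library lay inside the range of MYC_HCC. The difference between MYC_OFF and MYC_HCC was 1.33 with an SE of 0.56 and a limma adjusted p of 0.051.

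Cxcl1, a neutrophil attractant, had 0.91, 0.59 and 0.59 in MYC_Twist1_OFF, 1.86, 2.08, 0.94, 1.29 and 1.5 in MYC_Twist1_HCC, 0.75, 0.7 and 1.33 in MYC_Recur, 0.71, 0.62 and 0.48 in MYC_OFF, and 2.02, 0.95, 2, 12.54 and 5.04 in MYC_HCC. MYC_OFF was below MYC_HCC, without overlap (log2 fold change -1.42, SE 0.42, limma adjusted p = 0.00779). In MYC_Twist1_OFF against MYC_Twist1_HCC and in MYC_Recur against MYC_OFF, where Cxcr1 was called, Cxcl1 was not (-0.57 and 0.25, adjusted p = 0.282 and 0.681). MYC_HCC 4 and MYC_HCC 5 were the highest libraries, and the call held without both of them but not when only these groups entered the fit (adjusted p = 0.0554). Cxcl2, its close relative, was at 0.12 to 0.28 in MYC_Twist1_OFF, 0.25 to 1.86 in MYC_Twist1_HCC, 0.04 to 2.03 in MYC_Recur, 0 to 0.3 in MYC_OFF and 0 to 0.6 in MYC_HCC, and passed in no comparison. Cxcl3 and Cxcl5 were at most 0.15 and 0.23 in any library.

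Markers of neutrophils and monocytes gave no single direction. Their sum (7 of 8 listed genes had a row) was at 17.19 to 32.53 in MYC_Twist1_OFF, 7.13 to 12.77 in MYC_Twist1_HCC, 13.4 to 25.88 in MYC_Recur, 12.7 to 78.27 in MYC_OFF and 7.51 to 12.52 in MYC_HCC. Csf3r, the receptor of granulocyte colony-stimulating factor, had 28.28, 12.11 and 18.02 in MYC_Twist1_OFF, 5.61, 0.37, 2.73, 1.54 and 4 in MYC_Twist1_HCC, 0.34, 2.16 and 0.8 in MYC_Recur, 46.61, 74.85 and 8.95 in MYC_OFF and 1.26, 0.54, 1, 0.56 and 0.52 in MYC_HCC. S100a9, a protein of neutrophils and monocytes, had 0.9, 0.67 and 0.31 in MYC_Twist1_OFF, 3.04, 4.25, 3.3, 7.16 and 1.12 in MYC_Twist1_HCC, 11.11, 18.33 and 12.57 in MYC_Recur, 2.06, 0.52 and 0.65 in MYC_OFF and 3.36 to 7.36 in MYC_HCC. Csf3r thus lay with Cxcr1 and S100a9 against it. Elane and Mpo were at most 0.16 in any library, and the part of these cells in the Cxcr1 and Cxcr2 values was not tested.

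**Figure D4:**
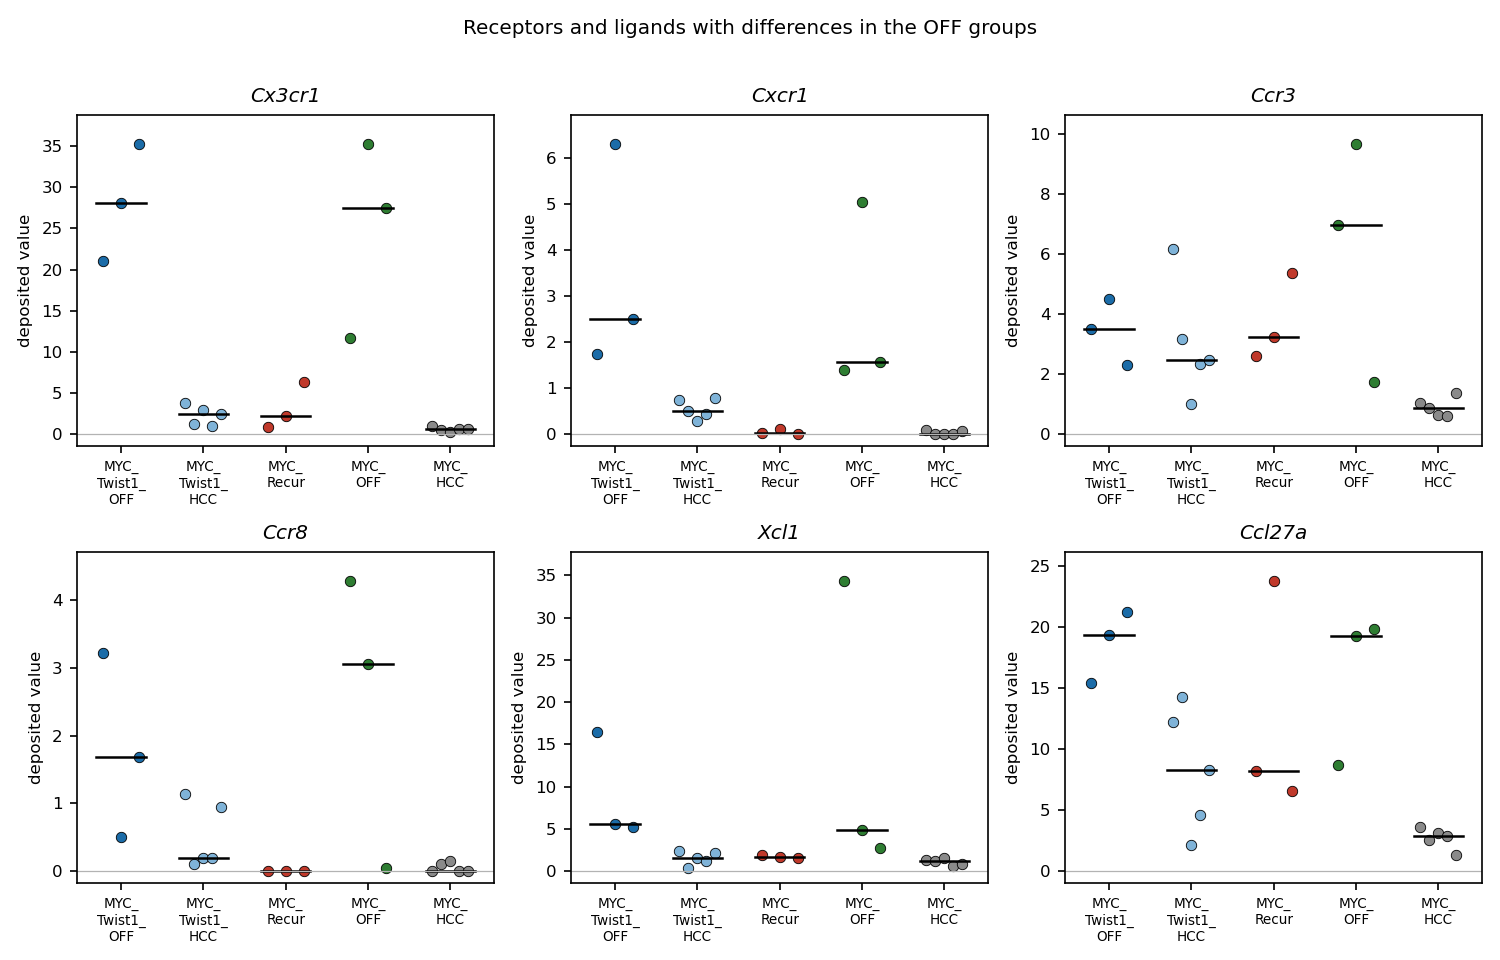
Deposited values of 4 receptors and 2 ligands by group, 1 point per library, with a bar at the group median. Cx3cr1, Cxcr1 and Xcl1 lie higher in all 6 libraries of the OFF groups than in the other 13, whereas Ccr3, Ccr8 and Ccl27a overlap between groups.

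Ccr3, the eotaxin receptor of eosinophils, had 3.49, 4.5 and 2.31 in MYC_Twist1_OFF, 6.15, 3.16, 1.01, 2.33 and 2.47 in MYC_Twist1_HCC, 2.59, 3.24 and 5.38 in MYC_Recur, 6.95, 9.67 and 1.74 in MYC_OFF, and 1.03, 0.86, 0.62, 0.59 and 1.37 in MYC_HCC. MYC_HCC held the low values, and no library of MYC_OFF or MYC_Recur reached down into its range. Its log2 fold change was 1.71 (SE 0.40, limma adjusted p = 0.00141) in MYC_OFF against MYC_HCC, which held under every alternative. It was 1.30 (SE 0.40, adjusted p = 0.0453) in MYC_Recur against MYC_HCC, which was lost in 18 of the 27 alternatives, under each of the 3 scalings among them (highest adjusted p 0.192). In MYC_Twist1_OFF against MYC_Twist1_HCC the difference was 0.23 (adjusted p = 0.659). Ccr3 had the largest interaction of the family, -1.48 with an SE of 0.57 and an adjusted p of 0.57. Its ligands Ccl11 and Ccl24 were at most 3.16 and 0.21 in any library.

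Among chemokines of lymphocyte homing and of mucosal surfaces, Ccl20 was high in MYC_Recur. Ccl20 (chr1:83116766-83119167, plus strand) draws Ccr6-bearing T helper 17 cells, B cells and dendritic cells and is induced in epithelial cells and hepatocytes during inflammation. It had 1.13, 0.43 and 0.63 in MYC_Twist1_OFF, 0.49, 0.47, 0.56, 1.52 and 0.44 in MYC_Twist1_HCC, 3.05, 4.26 and 13.28 in MYC_Recur, 0.99, 0.45 and 0.41 in MYC_OFF, and 0.77, 0.62, 0.91, 0 and 1.53 in MYC_HCC. Each MYC_Recur library was above all 16 others, of which the highest stood at 1.53. Its log2 fold change was 2.07 (SE 0.40, limma adjusted p = 0.000354) in MYC_Recur against MYC_OFF and 1.99 (SE 0.36, adjusted p = 0.00178) in MYC_Recur against MYC_HCC, and both calls held under every alternative. The comparison with MYC_OFF lies within the new deposit.

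The Ccl20 promoter, chr1:83116516-83116815, plus strand, in GRCm38.p6 from RefSeq, held 1 match to the NF-kB form, on the minus strand, which starts at position -80 from the gene's start and is in capitals. It held no match to the other motifs.
Ccl20 promoter: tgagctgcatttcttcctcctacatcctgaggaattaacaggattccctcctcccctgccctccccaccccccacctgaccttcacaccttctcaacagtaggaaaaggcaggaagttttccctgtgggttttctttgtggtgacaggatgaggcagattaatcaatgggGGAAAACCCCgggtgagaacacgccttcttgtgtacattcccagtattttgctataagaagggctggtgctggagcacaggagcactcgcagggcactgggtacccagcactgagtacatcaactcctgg
A promoter was found in the RefSeq table for 19 of the 24 measured members. The NF-kB form was in 5 of these 19 (Ccl20, Cxcl1, Cxcl2, Ccl9 and Ccr3, with 2 matches each in Cxcl1 and Cxcl2), against 1.63% of 32851 mouse promoters of the same length. The interferon form was in 2 of 19 (Cxcl10 and Cxcl14), against 3.44%, and TATAAA was in 5 of 19, against 13.6%. These counts say only which letters the windows hold, and Ccl20, Cxcl1, Cxcl2, Ccl9 and Ccr3 did not share a direction across the comparisons.

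Ccl27a, a skin and epithelial chemokine whose receptor is Ccr10, was low in MYC_HCC. It had 15.46, 19.36 and 21.23 in MYC_Twist1_OFF, 12.24, 14.27, 2.17, 4.59 and 8.32 in MYC_Twist1_HCC, 8.24, 23.8 and 6.53 in MYC_Recur, 8.68, 19.31 and 19.87 in MYC_OFF, and 3.65, 2.59, 3.12, 2.86 and 1.31 in MYC_HCC. All 9 libraries of the new deposit were above every MYC_HCC library, and MYC_Twist1_HCC overlapped with MYC_HCC. The log2 fold change was 1.28 (SE 0.46, limma adjusted p = 0.0306) in MYC_Twist1_OFF against MYC_Twist1_HCC, 2.15 (SE 0.46, adjusted p = 0.000719) in MYC_OFF against MYC_HCC and 1.73 (SE 0.46, adjusted p = 0.0219) in MYC_Recur against MYC_HCC. The second held under every alternative, and the others were lost in 7 and 4 of the 27. Ccl27a (chr4:41769467-41774247, minus strand) has near-identical copies in the mouse genome and its value is uncertain. The copy in the table, Ccl27b, was at most 0.35 in any library.

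Ccr10, the receptor of Ccl27a, was low throughout. It had 1.52, 1.05 and 0.88 in MYC_Twist1_OFF, 0.64, 0.23, 0.23, 0.17 and 0.12 in MYC_Twist1_HCC, 0.8, 0.27 and 0.23 in MYC_Recur, 1.78, 0.22 and 0.72 in MYC_OFF, and 0.16, 0.13, 0.1, 0.05 and 0 in MYC_HCC. It was higher in MYC_Twist1_OFF than in MYC_Twist1_HCC (log2 fold change 0.75, SE 0.24, limma adjusted p = 0.0159) and in MYC_OFF than in MYC_HCC (0.73, SE 0.24, adjusted p = 0.0145). Neither pair of groups overlapped, but the calls were lost without MYC_Twist1_OFF 1 (adjusted p = 0.0848) and without MYC_OFF 1 (adjusted p = 0.123). Ccr10 overlaps Cntnap1 on the opposite strand, and whether the counting used strand is not given in the sources used here.

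Ccr8, a receptor of regulatory and T helper 2 cells, had 3.21, 0.5 and 1.68 in MYC_Twist1_OFF, 1.14, 0.1, 0.2, 0.2 and 0.95 in MYC_Twist1_HCC, 4.28, 3.05 and 0.04 in MYC_OFF, and 0, 0.1, 0.15, 0 and 0 in MYC_HCC. It was listed at 0 in all 3 MYC_Recur libraries. Of the 3 MYC_OFF libraries 2 were high and the other lay within the range of MYC_HCC. It was higher in MYC_OFF than in MYC_HCC (log2 fold change 1.42, SE 0.42, limma adjusted p = 0.00704) and lower in MYC_Recur, against MYC_OFF (adjusted p = 0.0128). Without MYC_OFF 1 both calls were lost (limma adjusted p = 0.0663 and 0.0783), and the second was also lost without MYC_OFF 2 (adjusted p = 0.0617) and with only these groups in the fit (adjusted p = 0.0811). Ccl25, the thymus and gut chemokine, passed in no comparison, with 8.94 to 9.5 in MYC_Twist1_OFF, 6.57 to 8.87 in MYC_Twist1_HCC, 7.16 to 12.88 in MYC_Recur, 6.69 to 13.83 in MYC_OFF and 3.13 to 9.59 in MYC_HCC.

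Among the CC ligands of monocytes and macrophages, Ccl6 and Ccl2 had their highest values in MYC_HCC, and both overlapped there with MYC_Twist1_HCC. Ccl2 also overlapped with MYC_Recur and reached a value of 1 in only 4 libraries. Ccl6, a chemokine of mouse macrophages and neutrophils, had 1.66, 3.48 and 1.1 in MYC_Twist1_OFF, 4.99, 7.54, 0.24, 8.49 and 2.42 in MYC_Twist1_HCC, 0.79, 1.55 and 0.32 in MYC_Recur, 3.4, 0.75 and 0.9 in MYC_OFF, and 8.05, 8.62, 3.07, 7.93 and 19.04 in MYC_HCC. MYC_Recur did not overlap with MYC_HCC, while MYC_OFF 1 lay above the lowest MYC_HCC library. The log2 fold change was -1.90 (SE 0.58, limma adjusted p = 0.00912) in MYC_OFF against MYC_HCC, which held under every alternative. It was -2.33 (SE 0.58, adjusted p = 0.0144) in MYC_Recur against MYC_HCC, which was lost without MYC_HCC 4 and 5 and without MYC_Recur 3 (highest adjusted p 0.0805).

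Ccl2, the main attractant of inflammatory monocytes, had 0.39, 0.47 and 0.52 in MYC_Twist1_OFF, 0.73, 0.52, 0.82, 1.1 and 0.84 in MYC_Twist1_HCC, 1.07, 0.68 and 0.67 in MYC_Recur, 0.52, 0.3 and 0.24 in MYC_OFF, and 0.93, 0.93, 1.44, 0.68 and 2.03 in MYC_HCC. MYC_OFF was below MYC_HCC, without overlap (log2 fold change -0.68, SE 0.20, limma adjusted p = 0.00901), and the call held under every alternative. Relative to the median of all genes in that comparison the difference was -0.30. The libraries with Ccl2 at 1 or more were MYC_HCC 3, MYC_HCC 5, MYC_Twist1_HCC 4 and MYC_Recur 1. None was an OFF library, so the filter partly favoured a lower value in MYC_OFF. Ccl9, another macrophage chemokine of the mouse, had 1.81, 2.34 and 2.54 in MYC_Twist1_OFF, 3.72, 3.61, 3.2, 2.8 and 4.27 in MYC_Twist1_HCC, 3.94, 6.39 and 3.67 in MYC_Recur, 2.62, 1.35 and 2.11 in MYC_OFF, and 3.62, 5.1, 2.82, 2.99 and 4.6 in MYC_HCC. MYC_OFF lay below MYC_HCC without overlap (-0.67, SE 0.22, limma adjusted p = 0.0160), and MYC_Recur lay above MYC_OFF without overlap (0.90, SE 0.25, adjusted p = 0.00668). Relative to the median of all genes these differences were -0.29 and 0.44, and both calls were lost under each of the 3 scalings (highest adjusted p 0.266 and 0.162). The first was also lost without MYC_OFF 2 (adjusted p = 0.103).

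Summed macrophage and Kupffer cell markers (all 11 listed genes had a row) were at 295.66 to 329.94 in MYC_Twist1_OFF, 370.72 to 445.2 in MYC_Twist1_HCC, 463.37 to 499.7 in MYC_Recur, 312.39 to 413.76 in MYC_OFF and 229.89 to 706.48 in MYC_HCC. Of the 10 tested, 1 was higher and 3 were lower in MYC_OFF against MYC_HCC, and 3 were higher and 1 lower in MYC_Recur against MYC_OFF, against 18.9% and 39.4%, then 37.5% and 12%, of all genes, so none of these counts stood above the share of all genes. The highest sum was in MYC_HCC 5, the library in which Ccl6, Ccl2, Cxcl10 and Cxcl16 were highest. The part of macrophages in the Ccl2, Ccl6 and Ccl9 values was not tested.

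Ccl5, released by activated T cells and natural killer cells, had 3.81, 2.82 and 3.97 in MYC_Twist1_OFF, 2.27, 0.79, 0.71, 0.83 and 1.3 in MYC_Twist1_HCC, 1.01, 0.66 and 0.32 in MYC_Recur, 6.31, 2.95 and 0.81 in MYC_OFF, and 0.99, 0.59, 1.12, 3.38 and 3.16 in MYC_HCC. The MYC_Twist1_OFF libraries were above all of MYC_Twist1_HCC (log2 fold change 1.09, SE 0.40, limma adjusted p = 0.0323). MYC_Recur was lower than MYC_OFF with an overlap of 1 library (-1.19, SE 0.45, adjusted p = 0.0343). Each call was lost in 6 of the 27 alternatives. The inflammatory ligands Ccl3 and Ccl4 were at most 0.81 and 0.79 in any library, and the receptor Ccr1 was at most 0.96.

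In the homeostatic CXC branch, Cxcl12, the stromal ligand of Cxcr4 that holds stem cells and lymphocytes in their niches, was highest in MYC_Recur. Cxcl12 (chr6:117168535-117181367, plus strand) had 68.8, 56.79 and 48.29 in MYC_Twist1_OFF, 73.62, 60.47, 69.14, 69.6 and 63.77 in MYC_Twist1_HCC, 81.19, 101.15 and 92.76 in MYC_Recur, 52.62, 31.02 and 61.85 in MYC_OFF, and 44.62, 58.34, 52.36, 61.99 and 35.54 in MYC_HCC. Every MYC_Recur library exceeded all 16 others. Its log2 fold change was 0.96 (SE 0.25, limma adjusted p = 0.00381) in MYC_Recur against MYC_OFF and 0.87 (SE 0.22, adjusted p = 0.0169) in MYC_Recur against MYC_HCC. Relative to the median of all genes the first was 0.50, and it was lost under each of the 3 scalings (highest adjusted p 0.386). The second kept its call under the scalings and was lost without MYC_Recur 2, without MYC_Recur 3 and with the replicate number as a block (highest adjusted p 0.0776).

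Cxcr4, its signalling receptor, passed in no comparison and was at 2.25 to 3.27 in MYC_Twist1_OFF, 2.45 to 4.67 in MYC_Twist1_HCC, 2.29 to 3.02 in MYC_Recur, 1.51 to 2.8 in MYC_OFF and 1.84 to 9.36 in MYC_HCC. Ackr3, the atypical receptor that binds Cxcl12 and removes it (its row carries the older name Cxcr7), had 1.21, 1.17 and 2.97 in MYC_Twist1_OFF, 1.09, 0.54, 0.12, 0.22 and 0.33 in MYC_Twist1_HCC, 0.26, 0.32 and 0.17 in MYC_Recur, 4.86, 1.12 and 0.36 in MYC_OFF, and 0.58, 0.59, 0.43, 1.3 and 0.58 in MYC_HCC. It was higher in MYC_Twist1_OFF than in MYC_Twist1_HCC (log2 fold change 0.91, SE 0.36, limma adjusted p = 0.0455) and lower in MYC_Recur, against MYC_OFF (-1.04, SE 0.40, adjusted p = 0.0388). Neither pair of groups overlapped, and the calls were lost in 16 and 6 of the 27 alternatives. Ackr3 reached a value of 1 in 7 libraries, mostly in the OFF groups, so the filter partly set these directions. Summed endothelial markers (all 7 listed genes had a row) were at 65.53 to 113.86 in MYC_Twist1_OFF, 9.28 to 20.95 in MYC_Twist1_HCC, 5.17 to 10.53 in MYC_Recur, 32.32 to 88.74 in MYC_OFF and 11.15 to 82.72 in MYC_HCC. Of the 5 tested, 2 were higher and 1 lower in MYC_Twist1_OFF against MYC_Twist1_HCC, 2 were higher and 2 lower in MYC_OFF against MYC_HCC, and 1 was higher and 2 lower in MYC_Recur against MYC_OFF. Of all genes 13.1%, 18.9% and 37.5% were higher and 33.5%, 39.4% and 12% lower in these comparisons. Pecam1, an adhesion molecule of endothelium and blood cells, made up most of the sum in the OFF groups (59.59 to 106.49 in MYC_Twist1_OFF and 24.7 to 81.62 in MYC_OFF), whereas Cdh5, the cadherin of endothelial junctions, was lower in MYC_OFF than in MYC_HCC (log2 fold change -1.96, limma adjusted p = 0.00717). Tek was at 1.51 to 4.73 in MYC_OFF and 0 to 2.5 in MYC_HCC. Stab2 was at 0.08 to 0.29 in MYC_OFF and 0.48 to 2.28 in MYC_HCC. The highest endothelial sum of MYC_HCC was in MYC_HCC 4, where Cdh5 stood at 39.34. Cdh5 was at 3.37 to 8.01 in the other MYC_HCC libraries. The part of these cells in the Ackr3 values was not tested. With values as deposited, Cxcl12 was thus higher and Ackr3 lower in MYC_Recur than in MYC_OFF, while the Cxcr4 difference was 0.27 (limma adjusted p = 0.550). The Cxcl12 call was lost under each of the 3 scalings. The Ackr3 call was lost without MYC_OFF 1 (-0.44, limma adjusted p = 0.271).

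Cxcl16, made by macrophages and endothelial cells, was at 0.96 to 1.39 in MYC_Twist1_OFF, 1.75 to 2.69 in MYC_Twist1_HCC, 0.9 to 2.87 in MYC_Recur, 0.44 to 2.43 in MYC_OFF and 1.08 to 7.27 in MYC_HCC. Cxcl14 was at 0.53 to 1.1 in MYC_Twist1_OFF, 0.04 to 0.27 in MYC_Twist1_HCC, 0.06 to 0.21 in MYC_Recur, 0.13 to 1.37 in MYC_OFF and 0 to 1.4 in MYC_HCC. Neither gene passed in any comparison. All 3 MYC_Twist1_OFF libraries were below all MYC_Twist1_HCC libraries for Cxcl16 and above them for Cxcl14 (limma adjusted p = 0.235 and 0.0634), as groups did not overlap for 50.5% of all genes in that comparison.

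**Figure D5:**
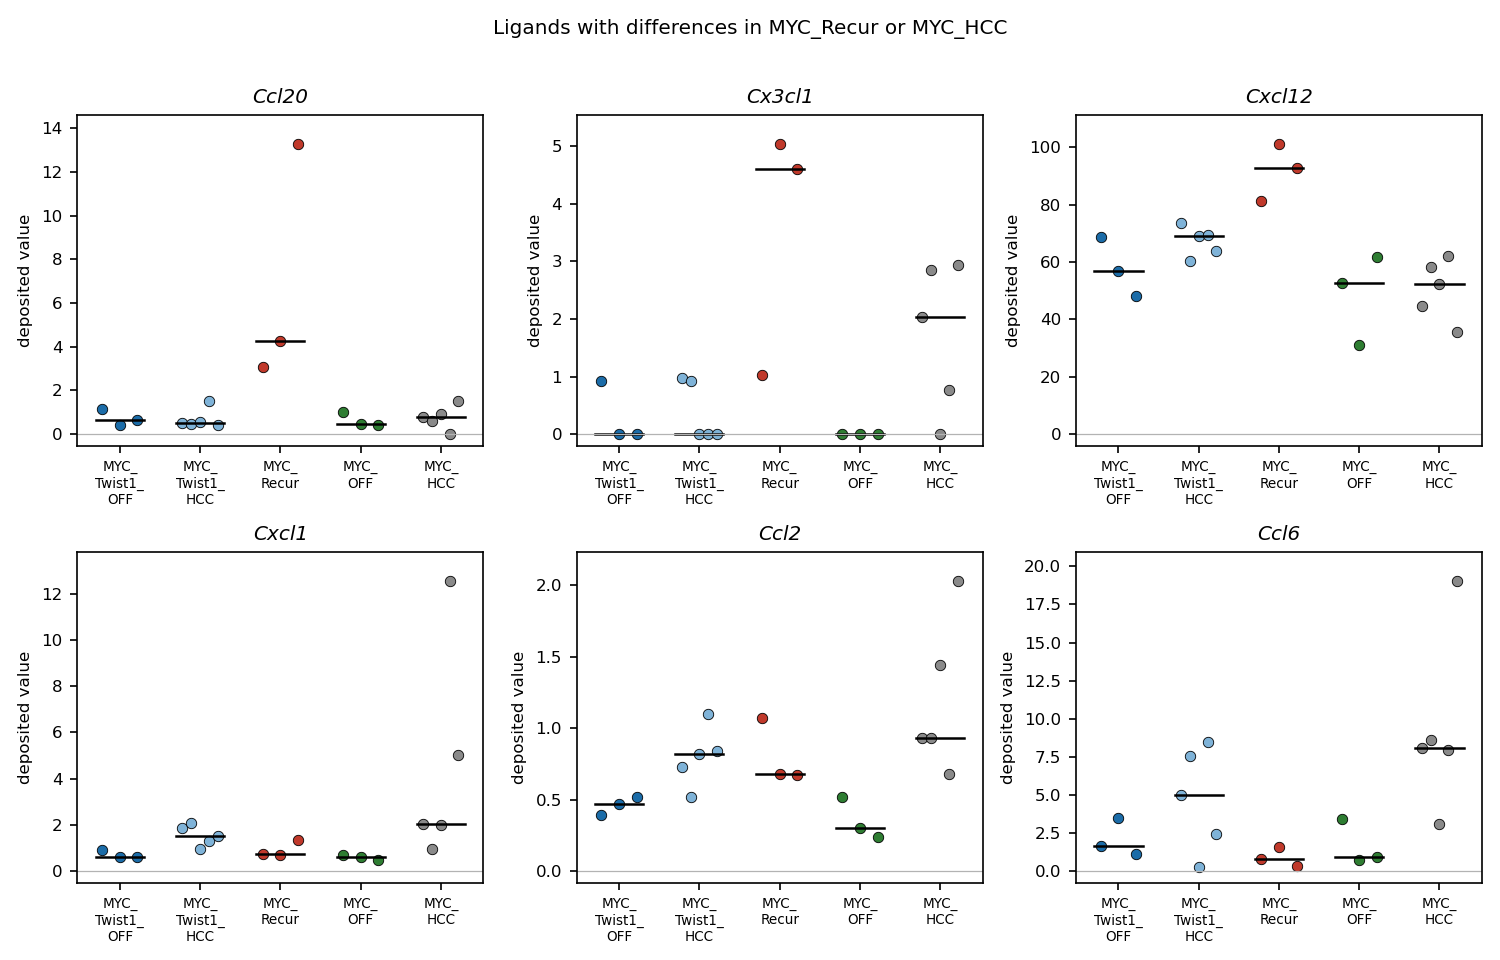
Deposited values of 6 ligands by group, 1 point per library, with a bar at the group median. Ccl20 and Cxcl12 lie higher in each MYC_Recur library than in all other libraries, and Cxcl1, Ccl2 and Ccl6 have their highest points in MYC_HCC.

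Of the interferon-inducible ligands, Cxcl10 did not pass in any comparison. It had 6.47, 9.13 and 8.62 in MYC_Twist1_OFF, 10.13, 10.73, 8.69, 10.42 and 15.11 in MYC_Twist1_HCC, 10.64, 8.35 and 4.45 in MYC_Recur, 7.11, 6.34 and 3.9 in MYC_OFF, and 9.56, 8.71, 7.89, 2.02 and 36.24 in MYC_HCC. The lowest and the highest of the 19 values were both in MYC_HCC. Cxcl11, which shares the receptor Cxcr3, had 1.1, 0.77 and 0.97 in MYC_Twist1_OFF, 1.28, 0.77, 0.33, 0.98 and 0.85 in MYC_Twist1_HCC, 1.88, 2.58 and 1.54 in MYC_Recur, 2.11, 1.46 and 1.35 in MYC_OFF, and 0.51, 0.93, 0.76, 1.49 and 0.45 in MYC_HCC. It was higher in MYC_OFF than in MYC_HCC (log2 fold change 0.55, SE 0.22, limma adjusted p = 0.0440) and in MYC_Recur than in MYC_HCC (0.73, SE 0.22, adjusted p = 0.0444), and these calls were lost in 14 and 19 of the 27 alternatives. Both genes overlap Art3 on the opposite strand. Art3 was at 1.5 to 6.66 in MYC_Twist1_OFF, 0.07 to 0.97 in MYC_Twist1_HCC, 0.15 to 1.18 in MYC_Recur, 0.93 to 12.92 in MYC_OFF and 0.15 to 0.84 in MYC_HCC, and its part in the Cxcl11 values was not tested. Cxcl9 was at most 1.64 in any library.

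The rest of the pathway was followed in 44 tested genes, taken from textbook lists (Ackr3 is in both sets). In MYC_OFF against MYC_HCC 11 were higher and 20 lower, in MYC_Twist1_OFF against MYC_Twist1_HCC 7 were higher and 15 lower, and in MYC_Recur against MYC_OFF 16 were higher and 8 lower. In MYC_Recur against MYC_HCC 2 were higher and 2 lower, in MYC_Twist1_HCC against MYC_HCC 1 was higher and 4 lower, and in MYC_Twist1_OFF against MYC_OFF limma called 0. Of all genes tested, 18.9% were higher and 39.4% lower in MYC_OFF against MYC_HCC, 13.1% and 33.5% in MYC_Twist1_OFF against MYC_Twist1_HCC, and 37.5% and 12% in MYC_Recur against MYC_OFF. These shares were 6.9% and 3.93% in MYC_Recur against MYC_HCC and 3.2% and 3.23% in MYC_Twist1_HCC against MYC_HCC. In MYC_Twist1_OFF against MYC_OFF 0.00755% were called. Whether the pathway counts differ from these shares was not tested.

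Among 12 tested inducers and transcription factors of chemokine genes, 8 were lower (39.4% of all genes) and 1 was higher (18.9%) in MYC_OFF against MYC_HCC (median -0.90, against -0.38 for all genes). The NF-kB subunit gene Nfkb2 had 0.59, 0.84 and 0.56 in MYC_Twist1_OFF, 1.97 to 3.93 in MYC_Twist1_HCC, 4.12, 3.94 and 6.61 in MYC_Recur, 1.91, 0.26 and 0.59 in MYC_OFF and 2.99 to 6.5 in MYC_HCC (log2 fold change in MYC_OFF against MYC_HCC -1.54, limma adjusted p = 0.000160). Jun, a subunit of AP-1, had 0.88, 1.78 and 0.9 in MYC_Twist1_OFF, 2.79 to 7.91 in MYC_Twist1_HCC, 10.67, 14.3 and 16.52 in MYC_Recur, 0, 0.95 and 0 in MYC_OFF and 13.52 to 29.7 in MYC_HCC. It was the only pathway gene called in the interaction (2.49, SE 0.44, limma adjusted p = 0.0335), a call lost in 7 of the 8 alternatives that kept all libraries or left out MYC_HCC 4 and 5 together. Tnf was the gene that was higher in MYC_OFF than in MYC_HCC (3.51, limma adjusted p = 0.00523). It had 8.9, 21.56 and 1.18 in MYC_Twist1_OFF, 1.66, 2.68 and 3.46 in MYC_Recur and 28.82, 10.97 and 6.06 in MYC_OFF. MYC_HCC was at 0.13 to 0.28. The highest Tnf value was 96.91, in MYC_Twist1_HCC 2, and the other MYC_Twist1_HCC libraries were at 0.93 to 4.59. In MYC_Twist1_OFF against MYC_Twist1_HCC 5 of the 12 were lower (33.5% of all genes) and 0 higher (13.1%), which is near the share of all genes, and in MYC_Recur against MYC_OFF 7 were higher (37.5% of all genes) and 0 lower (12%).

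Among 25 tested genes of receptor signalling, 7 were higher and 11 lower in MYC_OFF against MYC_HCC, 5 higher and 10 lower in MYC_Twist1_OFF against MYC_Twist1_HCC, and 9 higher and 6 lower in MYC_Recur against MYC_OFF. The shares of all genes higher and lower were 18.9% and 39.4%, 13.1% and 33.5%, and 37.5% and 12% in these comparisons. The genes of the inhibitory G protein subunits Gnai2 and Gnai3 were lower in MYC_OFF than in MYC_HCC (log2 fold change -1.31 and -1.54, limma adjusted p = 2.68e-05 and 2.45e-06). So was Arrb2, the beta-arrestin that takes receptors off the surface (-3.23, adjusted p = 2.30e-06). Rgs1, a brake on chemokine signalling in lymphocytes, was higher (4.49, adjusted p = 1.94e-06), and it was higher in MYC_Twist1_OFF than in MYC_Twist1_HCC as well (3.73, adjusted p = 3.10e-05). Of the atypical receptors, Ackr4, which clears Ccl19, Ccl21 and Ccl25, had 3.13, 1.08 and 2.94 in MYC_Twist1_OFF, 0.2 to 0.86 in MYC_Twist1_HCC, 0.09, 0 and 0.05 in MYC_Recur, 9.01, 6.15 and 0.29 in MYC_OFF and 0.15 to 0.39 in MYC_HCC. It was lower in MYC_Recur, against MYC_OFF (-2.11, adjusted p = 0.00187), as Ackr3 was.

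MYC_OFF 1 held the highest of all 19 values for 6 of the 24 measured members, against 12.2% of all genes tested, and MYC_Recur 2 did so for 5 of 24, or 20.8%, against 5.43%. MYC_HCC 5 held the highest value of 4 members, or 16.7%, against 5.03% of all genes, and MYC_HCC 4 of 3, or 12.5%, against 13.5%. Of the 56 genes, between 11 and 22 reached a value of 1 in a library, with the most in MYC_OFF 1.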

How the data were processed

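RNA sequencing of mouse liver tumors was deposited by the authors as 1 table of 19 libraries, a normalized signal per gene with 2 decimals. No source used here gives the formula behind these values or the depth of a library, so values were not compared between genes and no counting intervals were given. RNA came from flash-frozen tumors by RNeasy extraction, with libraries prepared by BGI methods, per the labels' protocols. Per the submitters' processing notes, the tools were Trimmomatic, STAR, Picard, featureCounts and DESeq2 with the mm10 build, with no role given. Of 19511 rows, 25 named only by a number were left out.

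Genes with a value of at least 1 in at least 3 libraries (13253) were tested with limma 3.58.1 (trended variances, R 4.3.3) on log2(value + 1). Fold changes are on that scale and understate changes of low genes. The 5 group means were fitted together, 14 residual degrees of freedom were left, and p-values were adjusted by Benjamini-Hochberg over all genes within each of 7 comparisons. The scalings used the upper quartile, the median of ratios or a trimmed mean of M values. There were 27 alternatives: another pseudocount, no filter, 3 scalings, only the groups compared, a replicate block, omission of MYC_HCC 4 and 5, and omission of each of 19 libraries. All measured members are described, those called in at least 1 comparison library by library, promoters were taken from the 3 ligands called in the most comparisons, ties going to the smallest adjusted p (Ccl27a, with several start sites, was left out), and genes of the pathway and marker lists were named where they were called or bear on a member. The members and lists were chosen with earlier results of these data known. Gene positions are from the GRCm38 annotation. Some genes of the lists are not reported here.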

Additional observations from a re-analysis of the deposited data

Results flagged for a closer look

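Of 48 tests for a single library far from the rest of its group, made in the groups of 5 for the measured members, 4 found one, where chance gives about 1 in 20. Cxcl10 was 36.24 in MYC_HCC 5, against 2.02 to 9.56 in the other MYC_HCC libraries. Ackr3 was 1.3 in MYC_HCC 4, against 0.43 to 0.59 in the others. Ccl20 was 1.52 in MYC_Twist1_HCC 4, against 0.44 to 0.56 in the others. Ccr10 was 0.64 in MYC_Twist1_HCC 1, against 0.12 to 0.23 in the others.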

How the results depend on the processing

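The 36 calls of a member in a comparison were recomputed under 27 alternatives, which gave 972 values. Of these, 843 kept the direction and the call, 129 kept the direction and lost the call, and 0 changed direction, and 14 of the 36 calls were never lost. The cause of the changes was not tested. In MYC_Twist1_HCC against MYC_HCC, where 0 members were called, 2 were called with a pseudocount of 0.1, 1 without the filter and 2 with only these groups in the fit. With only the groups compared, 11 members in place of 7 were called in MYC_Twist1_OFF against MYC_Twist1_HCC and 5 in place of 10 in MYC_Recur against MYC_OFF. Without MYC_HCC 4 and 5, members called in MYC_Recur against MYC_HCC were 2 in place of 6, pathway genes there 1 in place of 4, and pathway genes in MYC_Twist1_HCC against MYC_HCC 3 in place of 5. The 1 pathway gene called in the interaction was lost (0 called) with a pseudocount of 0.1, without the filter, under each of the 3 scalings, with only the groups compared and without MYC_HCC 4 and 5.

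Leaving out 1 library at a time gave 0 to 1 members and 3 to 6 pathway genes in MYC_Twist1_HCC against MYC_HCC, 10 to 16 and 26 to 33 in MYC_OFF against MYC_HCC, and 2 to 9 and 15 to 23 in MYC_Twist1_OFF against MYC_Twist1_HCC. It gave 6 to 11 and 18 to 26 in MYC_Recur against MYC_OFF, 2 to 7 and 0 to 5 in MYC_Recur against MYC_HCC, 0 to 0 and 0 to 0 in MYC_Twist1_OFF against MYC_OFF, and 0 to 0 and 0 to 1 in the interaction. Libraries of the same replicate number were not paired by the labels, and the correlations of their deviations from the group means ran from -0.171 to 0.384, so the numbers were taken as names only. With the replicate number as a block, members called in MYC_Recur against MYC_HCC were 2 in place of 6 and pathway genes 2 in place of 4, and no other count moved by over 1.5 times. Depth is unknown, and values near 0 limit what the low receptors can show.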
